A study of Gallus gallus with 48 samples.

Results

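The comparison set the eye that wore a spectacle lens against the uncovered eye of the same chick, over every bird of the study and whatever the sign or duration of the lens. It used 48 of 48 arrays, the lens eye and the control eye of 24 of 24 birds, and 38382 probe sets. Each gene was read by its lens eye minus control eye difference on the log2 scale, averaged over the 6 birds of each condition and then over the 4 conditions, so that a negative value means a lower signal in the lens eye. The 4 conditions were a lens of -15 D for 6 hours, a lens of +15 D for 6 hours, a lens of -15 D for 3 days and a lens of +15 D for 3 days. Every bird was a White Leghorn chick that carried its lens on a single eye from 1 week of age, and the control eye carried none. Birds were kept under 12 hours of light a day, and total RNA came from retina and retinal pigment epithelium (RPE) together. Affymetrix Chicken arrays were hybridised with cDNA made from 100 ng of it. The control eye belongs to the same animal, so a response shared by both eyes does not appear in the difference. The labels do not say whether the left or the right eye wore the lens.

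A negative lens places the image behind the photoreceptors and a chick eye responds by growing longer, whereas a positive lens places it in front and growth slows. The retina reads the sign of this defocus locally, through amacrine cells among others, and passes signals through the RPE to choroid and sclera. Averaging over both signs asks which transcripts differ with lens wear in the mean of the conditions. Such a mean can also be carried by a single sign or condition.

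The arrays, processed by the authors with RMA, were alike in median signal, which does not show that they were alike in quality. Array medians ran between 6.38 and 6.50 on the log2 scale, and the correlation between any 2 arrays was between 0.953 and 0.997. Most retinal and RPE markers were bright in every eye, with OPN1LW, the red cone opsin, between 10.77 and 13.46 and RPE65, the visual cycle isomerase of the RPE, between 11.01 and 13.16. GNAT1, the rod transducin, was dimmer at 5.48 to 7.09, and PMEL, a pigment granule protein of the RPE, lay between 7.11 and 9.78. Some eyes also carried RNA of neighbouring tissue. The mean difference over 24 genes of choroid, sclera and matrix lay between -1.93 in bird 4 of the +15 D, 3 day condition and 3.05 in bird 3 of the -15 D, 6 hour condition. The mean over 17 genes of the crystalline lens and anterior segment reached -4.65 in bird 5 of the -15 D, 6 hour condition. The spread of the difference over all probe sets had a median SD of 0.255 per bird and was widest, at 0.61, in bird 3 of the -15 D, 6 hour condition. The ratio of 3 prime to 5 prime actin signal, a measure of RNA integrity, differed by -0.014 ± 0.33 between lens and control eyes (SD, n = 24 birds) and was higher in the lens eye of 12 of 24 birds (two-sided sign-flip permutation p = 0.839). That mean joined opposite shifts, since the ratio was lower in the lens eye of 6 of 6 birds under -15 D at 6 hours, by 0.16 on average, and higher in 6 of 6 under -15 D at 3 days, by 0.32; the means under +15 D were -0.19 at 6 hours and -0.020 at 3 days. In whole tissue, fewer cells of a type and less RNA per cell cannot be told apart.

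More probe sets were called lower in lens eyes than higher. At an adjusted p under 0.05, 143 probe sets differed between lens and control eyes (limma with the bird as a block, Benjamini-Hochberg adjustment over all probe sets), which is 0.373% of those tested. Of these, 109 were lower in lens eyes (0.284% of all) and 34 were higher (0.0886% of all). At an unadjusted p under 0.05 the count was 5171 probe sets (13.5%), against 1919.1 that this threshold gives by itself, and 3084 of them were lower (8.04%) and 2087 higher (5.44%). With 1 probe set per gene, the brightest, this excess of falls was not seen at an unadjusted p under 0.05, where 970 of 13009 genes were lower (7.46%) and 1020 higher (7.84%). The called probe sets carried the symbols of 93 genes, 66 lower and 27 higher, and no gene was called in both directions. A further 39 called probe sets had no single gene symbol in the annotation and are not named.

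The changes were small. The called falls had a median of -0.20 and ran from -0.59 to -0.094, and the called rises had a median of 0.15 and ran from 0.11 to 0.43. Only 16 falls and 2 rises went beyond 0.3 on this scale. A called probe set had its sign in a median of 21 of 24 birds and in at least 16, a count that calling on the mean of the same birds raises. The lens eye was on the same side of the control eye in all 24 birds for 4 probe sets of the whole array (0.0104%), and all 4 were called. The 2 with a gene symbol were UTS2B and FAM150B.

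Probe sets of a called gene that missed the threshold tended to move with the called one. There were 114 such probe sets, and 96 of them (84.2%) had the sign of the called probe set, with a median difference of 0.072 in that direction. Over all probe sets, 50% had a mean difference below 0. The 114 were read in the same RNA and arrays as the called ones, so their signs are no separate support for the calls. Among the 97 whose mean signal was above background, set as the 95th percentile of probe sets for viral sequences at 4.50, the share was 86.6%.

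**Figure D1:**
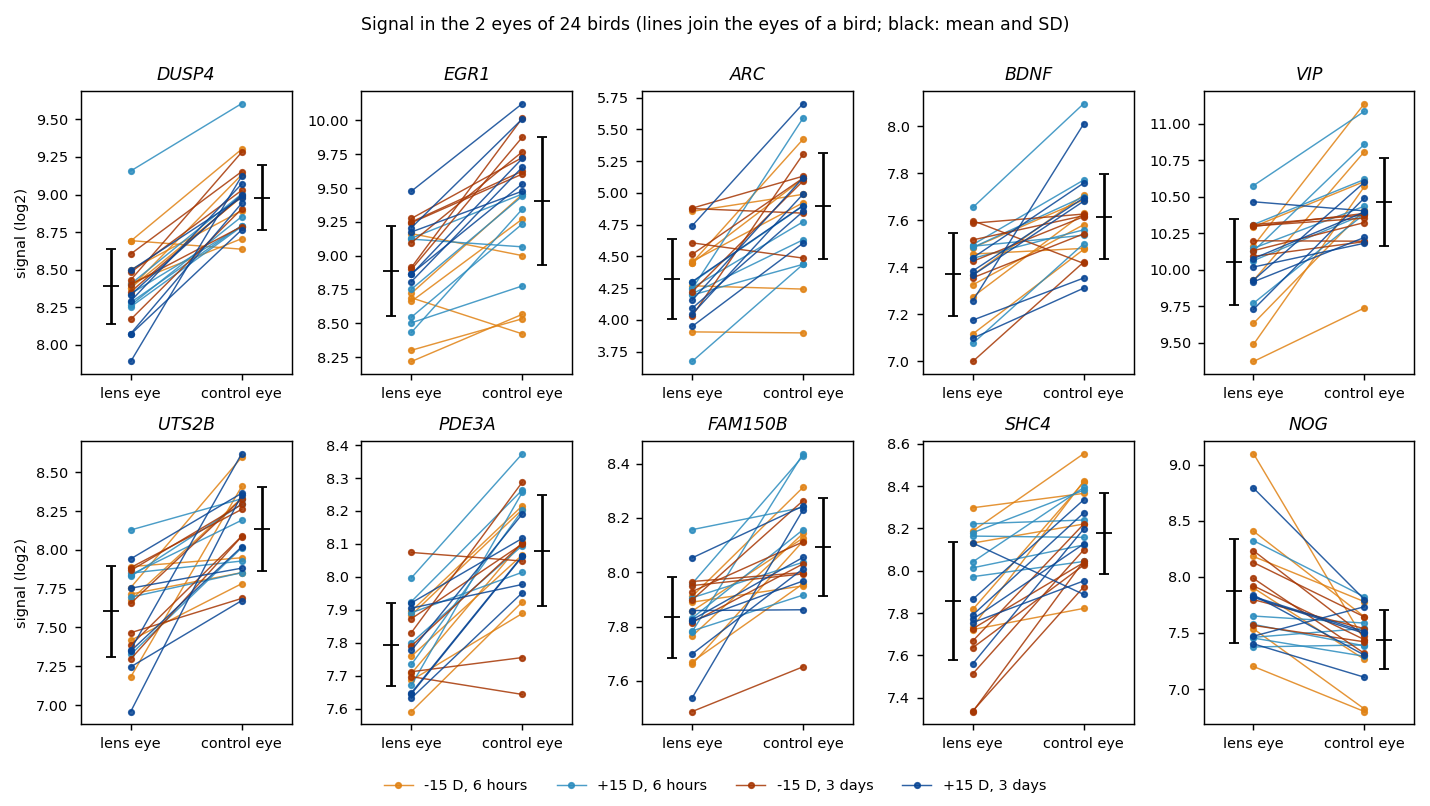
Log2 signal of 10 genes in the lens eye (left) and the control eye (right) of each of 24 birds, with a line joining the 2 eyes of a bird and colour giving the condition; black marks are the mean and SD over 24 eyes. UTS2B and FAM150B are lower in the lens eye of 24 of 24 birds and DUSP4 in 23, while NOG is higher in 21.

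DUSP4, a nuclear phosphatase of MAP kinases whose own transcription they drive, gave the lowest adjusted p. Its signal in lens eyes had a lowest value of 7.89, a median of 8.38 and a highest value of 9.16, against 8.64, 8.98 and 9.61 in control eyes. The groups overlapped over all birds, but in both 3 day conditions every lens eye was below every control eye, as was true of 0.935% of all probe sets in one or the other direction under -15 D and of 0.112% under +15 D. The mean difference was -0.59 ± 0.043 (SE, n = 24 birds), a 1.51-fold lower signal, with a 95% interval of -0.68 to -0.50 and an adjusted p of 3.22e-08 in limma. The lens eye was lower in 23 of 24 birds. The condition means were -0.43 for -15 D at 6 hours, -0.52 for +15 D at 6 hours, -0.62 for -15 D at 3 days and -0.79 for +15 D at 3 days. A second DUSP4 probe set fell by 0.50 (limma adjusted p = 2.03e-06).

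Other inhibitors of the MAP kinase pathway did not pass the test. Of 17 measured genes in that list, which holds dual-specificity phosphatases, Sprouty and Spred proteins, DUSP4 alone was called by its brightest probe set, and the list's median was -0.006, against 0.0065 over all 13009 genes. At an unadjusted p under 0.05 in limma, 4 of the 17, DUSP4 among them, were lower (23.5%, against 7.46% of all genes). On the same count 0 were higher, against 7.84% of all genes. Of all genes read by their brightest probe set, 63 (0.484%) were called, with 0.331% called lower and 0.154% called higher. DUSP6, a phosphatase for ERK, differed by -0.056 (limma adjusted p = 0.266), and DUSP5 differed by -0.11 (limma adjusted p = 0.187).

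Most of the listed genes induced by neuronal activity had differences below 0. Of 19 measured immediate early and plasticity genes, 5 were called lower and 1 higher by their brightest probe set, 15 had a difference below 0, and the list's median was -0.11. Of all genes, 0.331% were called lower and 0.154% higher, and 45.1% had a difference below 0. Over the 23 lists the share ran from 14.3% (blood and immune genes) to 80% (protein phosphatase 2A and ubiquitin ligase genes), and here it was 78.9%. The mean of this list was below 0 in 23 of 24 birds. That mean includes the genes called on the same birds, so the count is no separate support. The members were chosen with earlier results of these data known, so the counts and the median only describe this list. Of the 19, 4 lay below background. The 5 called lower were ARC, EGR1, BDNF, MAFF and SIK1, and CREM was called by another of its probe sets.

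EGR1 encodes a transcription factor that, in chick amacrine cells, is known to follow the sign of defocus. Its more responsive probe set had values of 8.22, 8.88 and 9.48 (lowest, median, highest) in lens eyes, against 8.42, 9.47 and 10.13 in control eyes. The ranges overlapped, although under -15 D for 3 days no lens eye reached the lowest control eye. In that condition the groups parted, in either direction, for 0.935% of all probe sets. The difference was -0.52 ± 0.064 (SE, n = 24 birds), with a limma adjusted p of 0.000226, and the lens eye was lower in 21 birds. The brighter EGR1 probe set fell by 0.33 (limma adjusted p = 0.00187). The mean difference in the first probe set was -0.45 over birds with a -15 D lens and -0.58 over birds with a +15 D lens, and the test of the difference between signs gave an unadjusted p of 0.329 in limma.

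ARC encodes a synaptic protein whose mRNA follows neuronal firing. It had values of 3.67, 4.26 and 4.88 in lens eyes, against 3.90, 4.91 and 5.70 in control eyes. Its mean in lens eyes, 4.32, lay below the background level of 4.50, so this fall was read at the floor of the array. The measured difference was -0.58 ± 0.076 (SE, n = 24 birds; limma adjusted p = 0.000628) and the lens eye was lower in 20 birds. A dimmer ARC probe set, with a mean of 3.27, differed by -0.020.

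BDNF, a neurotrophin released by active neurons, fell in both of its probe sets, by 0.25 (limma adjusted p = 0.00167) and by 0.26 (limma adjusted p = 0.00417). The lens eye was lower in 23 and 22 of 24 birds. MAFF, a small MAF transcription factor, fell by 0.17, and SIK1, a kinase induced by cyclic AMP, fell by 0.14. CREM, a cyclic AMP responsive transcription factor, fell by 0.17 in a dimmer probe set (limma adjusted p = 0.0299). The brightest CREM probe set differed by -0.12 (limma adjusted p = 0.137) and the dimmest by 0.0024 (adjusted p = 0.987). JUN, a subunit of the AP-1 factor, went the other way, rising by 0.12 (limma adjusted p = 0.0394) with a higher lens eye in 21 birds. FOS, its usual partner, differed by -0.13 at a mean signal of 4.48 and did not pass the test (limma adjusted p = 0.177).

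Among 20 measured genes in the list of neuropeptides and receptors, 2 were called, both lower, where 0.331% of all genes were called lower. CALCA, a called gene named below, was not on this list. The list's median was -0.006. At an unadjusted p under 0.05 in limma, 5 were lower (25%, against 7.46% of all genes) and 0 higher (against 7.84%). VIP, the vasoactive intestinal peptide of a class of amacrine cells, had values of 9.37, 10.11 and 10.58 in lens eyes, against 9.74, 10.40 and 11.14 in control eyes. The ranges overlapped over all birds and within each condition. The difference was -0.41 ± 0.048 (SE, n = 24 birds; limma adjusted p = 0.000129), and the lens eye was lower in 22 birds. Its size varied with condition, from -0.73 for -15 D and -0.46 for +15 D at 6 hours to -0.083 for -15 D and -0.36 for +15 D at 3 days. The difference between durations had an unadjusted p of 7.27e-04 and did not survive adjustment (limma adjusted p = 0.41).

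UTS2B encodes a urotensin-related peptide. Its values were 6.96, 7.69 and 8.13 in lens eyes, against 7.67, 8.14 and 8.62 in control eyes. The groups overlapped, but within each of 24 birds the lens eye was the lower, with differences from -1.40 to -0.057. The mean difference was -0.53 ± 0.072 (SE, n = 24 birds; limma adjusted p = 0.000694). The condition means ran from -0.32 (+15 D, 6 hours) to -0.72 (+15 D, 3 days).

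Other peptides named in work on chick eye growth did not pass the adjusted test. GCG, the glucagon precursor, differed by -0.17 (95% interval -0.29 to -0.056, limma adjusted p = 0.179), PENK, the enkephalin precursor, by 0.030 (adjusted p = 0.651), and ADCYAP1, which encodes the peptide PACAP, by -0.16 ± 0.041 (SE, n = 24 birds; limma adjusted p = 0.086). GCG averaged -0.30 over birds with a -15 D lens and -0.049 over birds with a +15 D lens, with an unadjusted p of 0.0389 in limma for the difference between signs.

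Enzymes that make and break cyclic nucleotides were called in 5 of 20 measured genes when any probe set counted, and in 2, PDE3A and PDE10A, when the brightest did. All calls in this list were lower in lens eyes. Over all 13009 genes, 93 were called when any probe set counted and 63 when the brightest did. A gene with more probe sets has more chances of a call by any of them. The list's median was -0.035, and 13 of 20 genes were below 0 (65%, against 45.1% of all genes). PDE3A, a phosphodiesterase that degrades cyclic AMP and is inhibited by cyclic GMP, had values of 7.59, 7.78 and 8.07 in lens eyes, against 7.64, 8.10 and 8.37 in control eyes. Every lens eye lay below every control eye in both +15 D conditions, where the groups parted in either direction for 0.0443% of all probe sets at 6 hours and 0.112% at 3 days. Its difference was -0.29 ± 0.032 (SE, n = 24 birds; limma adjusted p = 6.69e-05), and DUSP4 and PDE3A were the 2 genes called both over the 12 birds with -15 D lenses alone and over the 12 with +15 D lenses alone.

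PDE10A, a phosphodiesterase for both cyclic nucleotides, was called by 3 of its probe sets, with falls of 0.18, 0.24 and 0.32 from the brightest to the dimmest of the 3. The lens eye was lower in 22, 22 and 23 of 24 birds. The calls in ADCY1 and ADCY8, cyclases stimulated by calcium, and in GUCY1A3, a subunit of the soluble guanylate cyclase, rested on dimmer probe sets. GUCY1A3 fell by 0.32 in its most responsive probe set (limma adjusted p = 0.00773), while its brightest differed by -0.14 (adjusted p = 0.119). ADCY1 fell by 0.28 in a dimmer probe set, at 6.73, and differed by -0.17 in the brightest, at 10.33 (limma adjusted p = 0.0723).

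Melanopsins and a melatonin receptor fell as well. Of 25 measured clock and melatonin genes, 3 were called, all lower, where 0.331% of all genes were called lower. The list had 19 genes below 0 (76%, against 45.1% of all genes) and a median of -0.034. At an unadjusted p under 0.05 in limma, 5 were lower (20%, against 7.46% of all genes) and 0 higher (against 7.84%). OPN4-1 and OPN4, 2 melanopsin genes of the chick, each fell by 0.28 (limma adjusted p = 0.00301 and 0.0194), with a lower lens eye in 23 and 21 of 24 birds. MTNR1A, a melatonin receptor, fell by 0.25 (limma adjusted p = 0.0225). The clock genes themselves were not called. CRY1 differed by -0.010 ± 0.023 (SE, n = 24 birds; limma adjusted p = 0.891) and PER2 by -0.043 ± 0.10 (limma adjusted p = 0.897), each in its brightest probe set. The dimmer PER2 probe sets above background differed by between -0.18 and -0.11, with limma adjusted p values between 0.266 and 0.436.

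Rod and cone phototransduction genes gave 0 calls in limma among 23 measured, with 2 lower and 1 higher at an unadjusted p under 0.05 (8.70% and 4.35%, against 7.46% and 7.84% of all genes) and a median of -0.011. Genes of transmitter signalling gave 0 calls by brightest probe set among 28, with 5 lower (17.9%, against 7.46% of all genes) and 1 higher (3.57%, against 7.84%) unadjusted. In that list 20 of 28 were below 0 (71.4%, against 45.1% of all genes). DRD2, the D2 dopamine receptor, fell by 0.22 in a dim probe set (limma adjusted p = 0.00867), whereas its brightest differed by -0.083 (adjusted p = 0.475). TH, which makes the dopamine precursor, differed by -0.091 (limma adjusted p = 0.517) at a signal close to background.

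Synaptic vesicle genes gave 0 calls by brightest probe set among 19, with 4 lower (21.1%, against 7.46% of all genes) and 1 higher (5.26%, against 7.84%) at an unadjusted p under 0.05. SNAP25, a fusion protein of synaptic vesicles, shows how far probe sets can part. A dimmer probe set, at 8.55, fell by 0.28 (limma adjusted p = 0.0464) with a lower lens eye in only 16 birds. Another, at 8.47, differed by -0.24, also with a lower lens eye in 16 birds (limma adjusted p = 0.114). The 5 brighter ones, at signals of 12.08 to 13.84, differed by between -0.073 and -0.0062. The condition means of the called probe set were -0.74 and -0.19 at 6 hours and -0.12 and -0.087 at 3 days, for -15 D and +15 D in turn. The deepest of these falls was in the condition where the actin ratio was lower in every lens eye, and the part of RNA integrity in it was not tested.

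**Figure D2:**
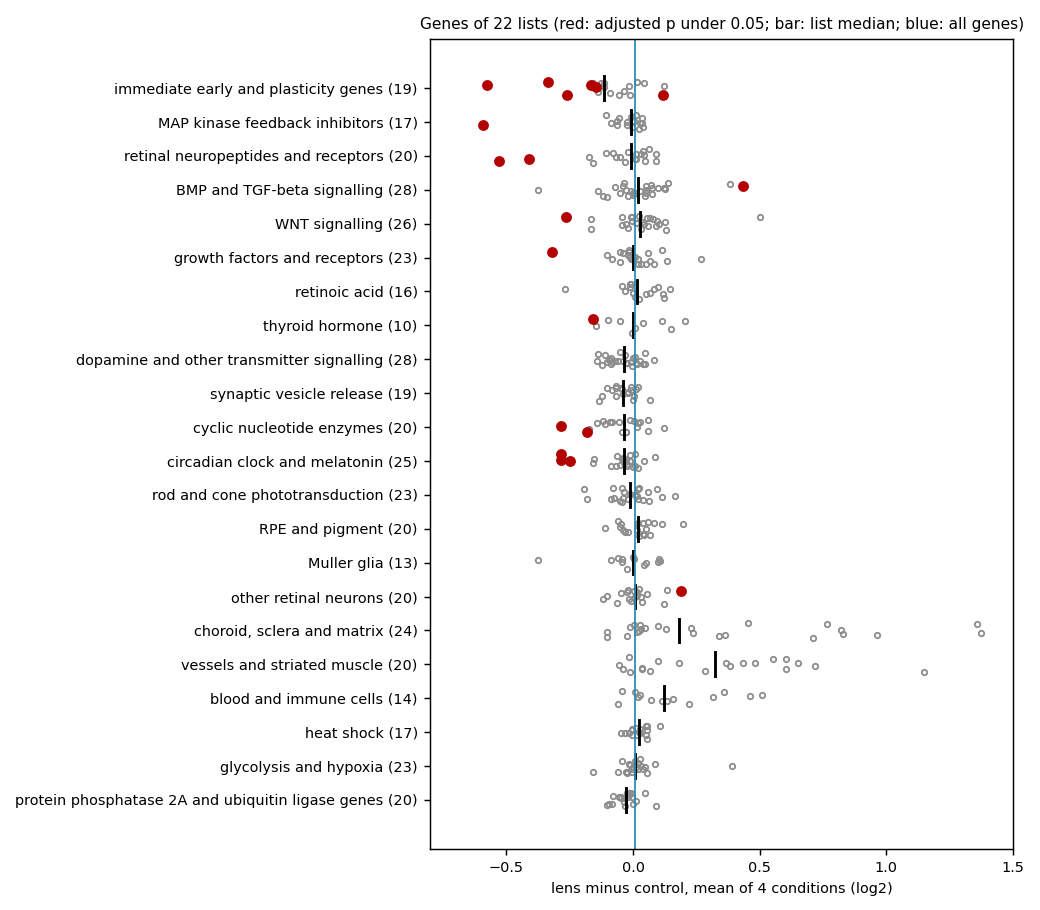
Lens eye minus control eye difference, on the log2 scale, of each gene (by its brightest probe set) in 22 lists, with the number of measured genes in brackets. Red points have an adjusted p under 0.05, the black bar is the list's median and the blue line the median of all genes, 0.0065; the list of crystalline lens genes, whose median is -0.85, is left out. Immediate early genes sit to the left, while lists of choroid, vessel and blood genes spread to the right with no call.

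Several other signalling genes were called. FAM150B, which encodes a ligand of the receptor kinases ALK and LTK, had values of 7.49, 7.84 and 8.16 in lens eyes, against 7.65, 8.08 and 8.44 in control eyes. The ranges overlapped, but the lens eye was the lower in 24 of 24 birds, by 0.26 ± 0.038 on average (SE; limma adjusted p = 0.00167). SHC4, an adaptor of receptor tyrosine kinases in the list of growth factors, fell by 0.32 (limma adjusted p = 0.00131), and a second SHC4 probe set fell by 0.26 (adjusted p = 0.0168). It was the only call among 23 genes of that list, where 0.484% of all genes were called. At an unadjusted p under 0.05 in limma, 3 of the 23 were lower (13%, against 7.46% of all genes). On the same count 1 was higher (4.35%, against 7.84%).

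DIO2, the deiodinase that turns thyroxine into the active hormone, was one of the brighter genes called, with values of 11.69, 12.00 and 12.28 in lens eyes, against 11.88, 12.12 and 12.44 in control eyes. It fell by only 0.16 ± 0.024 (SE, n = 24 birds; limma adjusted p = 0.00187), yet the lens eye was lower in 22 birds. DIO2 was the only call among 10 measured thyroid hormone genes, where 0.484% of all genes were called. At an unadjusted p under 0.05 in limma, 2 of the 10 were lower (20%, against 7.46% of all genes) and 0 higher (against 7.84%). RSPO2, a secreted enhancer of WNT signalling, fell by 0.26 (limma adjusted p = 0.00187), and no other of 26 measured WNT genes was called. Its condition means were -0.31 (-15 D) and -0.51 (+15 D) at 6 hours, and -0.026 (-15 D) and -0.21 (+15 D) at 3 days. SCAF11, which takes part in splicing, fell by 0.23 in its dimmest probe set (limma adjusted p = 0.00167). Its brighter probe sets both differed by -0.096 (limma adjusted p = 0.13 and 0.28). DCLK1, a kinase bound to microtubules, fell by 0.28 in its dimmest probe set (limma adjusted p = 0.00383). The brightest DCLK1 probe set differed by -0.014 (limma adjusted p = 0.823), and the others by between -0.068 and 0.016. PRSS56, a serine protease linked to refractive error in humans and singled out here after its values were seen, fell by 0.37 ± 0.061 (SE, n = 24 birds; limma adjusted p = 0.00383).

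NOG was the largest of the called rises, and its product, noggin, is secreted and holds BMPs away from their receptors. Its values were 7.20, 7.82 and 9.10 in lens eyes, against 6.80, 7.46 and 7.82 in control eyes. The ranges overlapped in all 4 conditions. The difference was 0.43 ± 0.067 (SE, n = 24 birds; limma adjusted p = 0.00221), with a higher lens eye in 21 birds. The condition means were 0.76 (-15 D) and 0.14 (+15 D) at 6 hours, and 0.47 (-15 D) and 0.37 (+15 D) at 3 days. Bird 3 of the -15 D, 6 hour condition, in which the genes of choroid and sclera were also highest, had the largest NOG difference at 1.67, and bird 4 of the +15 D, 3 day condition, in which those genes were lowest, had the lowest at -0.26. Without the 3 birds of widest spread, which include the first of these and not the second, NOG rose by 0.35 (limma adjusted p = 0.00264). The part of choroid and sclera RNA in the rise was not tested.

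No other of 28 measured genes in the BMP and TGF-beta list was called, where 0.484% of all genes were, and the list's median was 0.019. At an unadjusted p under 0.05 in limma, 2 of the 28 were lower (7.14%, against 7.46% of all genes). On the same count 4 were higher (14.3%, against 7.84%). TGFBR2L, a called gene described below, was not on this list. BMP2, a ligand that noggin binds, had unlike means in the 4 conditions, though no test of their differences passed adjustment. Its condition means were -0.86 (-15 D) and 0.52 (+15 D) at 6 hours, and -1.15 (-15 D) and -0.019 (+15 D) at 3 days, and the difference between signs had an unadjusted p of 5.46e-05 in limma (adjusted p = 0.521). Its mean over all conditions was -0.38 ± 0.13 (SE, n = 24 birds; limma adjusted p = 0.187). TGFB2 differed by 0.076 (limma adjusted p = 0.608), and ALDH1A2, which makes retinoic acid and is abundant in choroid, by 0.15 ± 0.36 (adjusted p = 0.903).

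The other rises were smaller. ADRA2A, an adrenergic receptor, rose by 0.20 ± 0.036 (SE, n = 24 birds; limma adjusted p = 0.0108), with condition means between 0.16 and 0.24. LHX1, a transcription factor of horizontal cells, rose by 0.19 at a mean signal near background, CDKN1A, the cell cycle inhibitor p21, rose by 0.14, and SMOX, which oxidises spermine, rose by 0.18. Another 9 genes with the lowest adjusted p among rises, LURAP1L, TXLNA, MCRIP1, POLE3, TMEM215, RAD52, PPDPF, TGFBR2L and ARL2BP, rose by 0.11 to 0.16 with limma adjusted p values between 0.0138 and 0.0357. The brightest probe sets of TXLNA and TGFBR2L were not called, at 0.070 and 0.0915 (limma adjusted p = 0.478 and 0.501). Dimmer ARL2BP probe sets above background differed by 0.061 and -0.0091, and a dimmer one of MCRIP1 by 0.16 (limma adjusted p = 0.114).

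PRLL, a prolactin-like hormone gene, was the least even of the named rises. Its values were 5.48, 6.35 and 7.70 in lens eyes, against 5.00, 5.74 and 7.06 in control eyes, and the groups overlapped in each condition. The difference was 0.42 ± 0.088 (SE, n = 24 birds; limma adjusted p = 0.0354), with a higher lens eye in 18 birds. The condition mean was 0.97 for +15 D at 3 days and between 0.19 and 0.31 in the other 3.

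**Figure D3:**
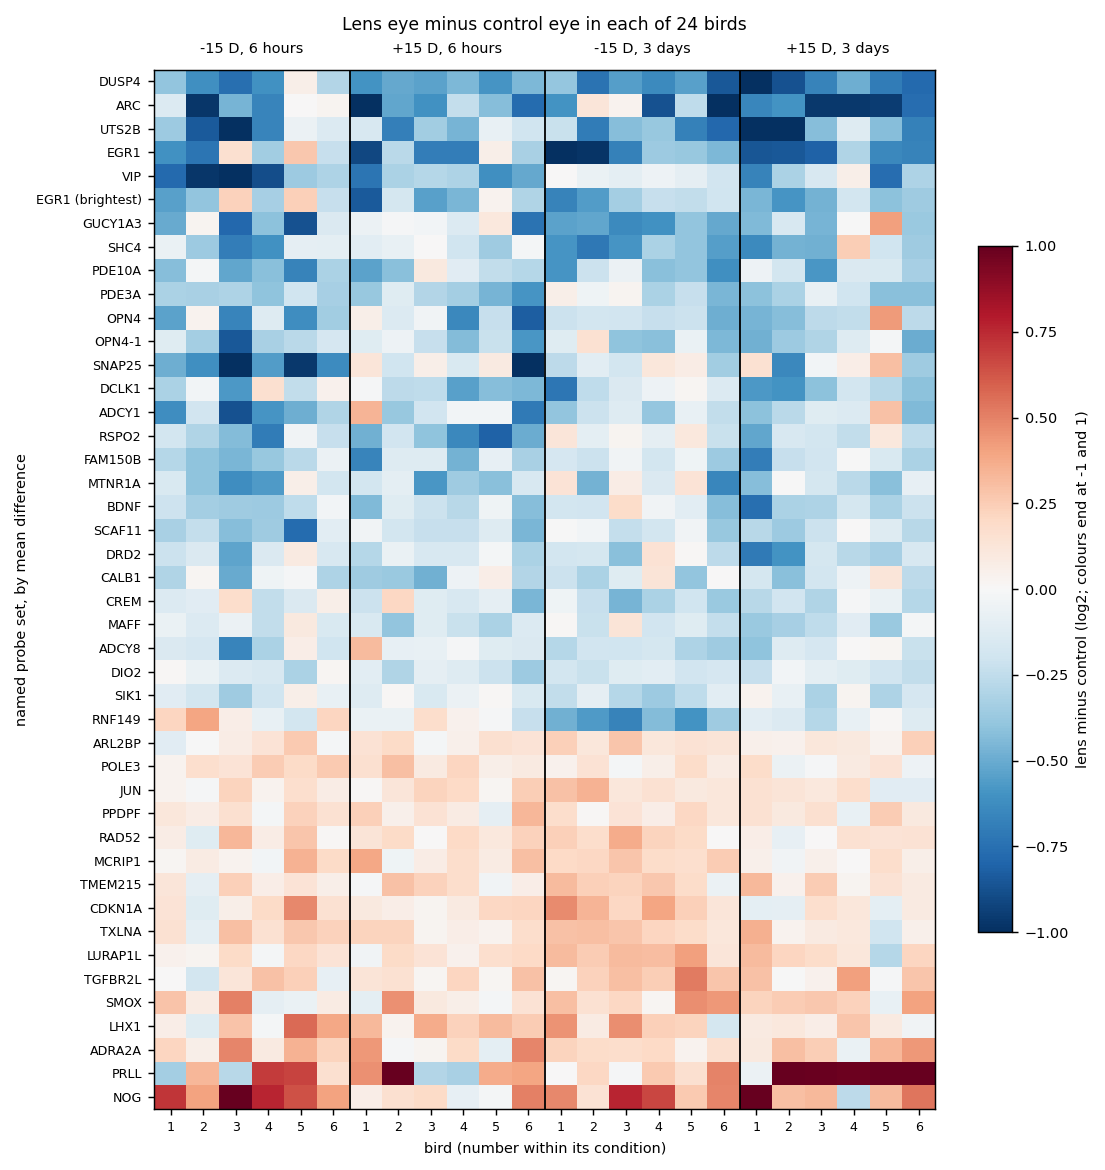
Lens eye minus control eye difference (log2, colour) of the 44 named probe sets with an adjusted p under 0.05, in each of 24 birds, ordered down the page by mean difference and across by condition. Blue rows such as DUSP4 and UTS2B run through all 4 conditions, whereas SNAP25 is deepest under -15 D at 6 hours, RNF149 is blue under -15 D at 3 days and PRLL is red in 5 of 6 birds under +15 D at 3 days.

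The response was next set out by condition. Of 143 called probe sets, 140 had the same sign in all 4 condition means, against 17.8% of all probe sets, a share that the choice of these probe sets by their mean raises. The called falls had a median of -0.25 (-15 D) and -0.21 (+15 D) at 6 hours, and of -0.19 (-15 D) and -0.18 (+15 D) at 3 days. The called rises had a median of 0.12 (-15 D) and 0.14 (+15 D) at 6 hours, and of 0.20 (-15 D) and 0.12 (+15 D) at 3 days. An unadjusted p under 0.05 in limma with a single sign in each of the 4 conditions was found for 28 probe sets of the array (0.073%). All 28 were called, which is nearly given, since the call tests the mean of the same 4 condition means. Their gene symbols were ADRA2A, ARC, BDNF, CALCA, DENND4C, DIO2, DUSP4, FAM150B, OPN4-1, PDE10A, PDE3A, PIWIL1, PPDPF, SCAF11, TARBP1 and UTS2B.

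No probe set had a lens effect that differed among the 4 conditions at an adjusted p under 0.05 in limma's F test, with 3354 (8.74%) at an unadjusted p under 0.05. The contrast between lens signs likewise gave 0 calls in limma, with 3451 (8.99%) unadjusted, and the product of sign and duration gave 0, with 1494 (3.89%) unadjusted. The contrast between durations gave 1 call (0.00261%; 3512 or 9.15% unadjusted), a dim probe set of EPHB6, an ephrin receptor, with a mean signal of 4.66. Its difference was 0.55 higher at 3 days than at 6 hours (limma adjusted p = 0.0312). Its mean in lens eyes under -15 D at 6 hours, 4.11, was under the background level (4.50), which makes the exact size a floor reading, and the brightest EPHB6 probe set, at 9.65, gave 0.080 for the same contrast (adjusted p = 0.781). The birds of each condition carry consecutive numbers of their own, so differences among conditions and among those sets of birds cannot be told apart, which does not touch the contrast between the eyes of a bird.

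Fewer birds gave far fewer calls in most subsets. The 12 birds with -15 D lenses alone gave 210 called probe sets in limma (0.547%), 186 lower (0.485%) and 24 higher (0.0625%), and the 12 birds with +15 D lenses gave 6 (0.0156%), all lower. The 12 birds at 6 hours gave 3 (0.00782%) and the 12 at 3 days gave 5 (0.013%), all lower in lens eyes. DUSP4 was called in both durations. Within single conditions limma called 15 (0.0391%) for -15 D and 3 (0.00782%) for +15 D at 6 hours, and 27 (0.0703%) for -15 D and 2 (0.00521%) for +15 D at 3 days.

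Birds with +15 D lenses, which shared no animal with the others, served as a separate reading of the falls found under -15 D. Of the 186 probe sets called lower under -15 D, 116 (62.4%) were below 0 under +15 D, against 52.5% of all probe sets, and 28 (15.1%) were lower at an unadjusted p under 0.05, against 3.12% of all. Of the 24 called higher under -15 D, 15 (62.5%) were above 0 under +15 D, and 5 (20.8%) were higher at an unadjusted p under 0.05, against 2.43% of all. All 6 probe sets called lower under +15 D were lower under -15 D at an unadjusted p under 0.05, where the share of all probe sets was 10.8%. Across all probe sets, which are not independent, the differences under the 2 signs had a correlation of 0.159, and those at the 2 durations one of 0.265.

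**Figure D4:**
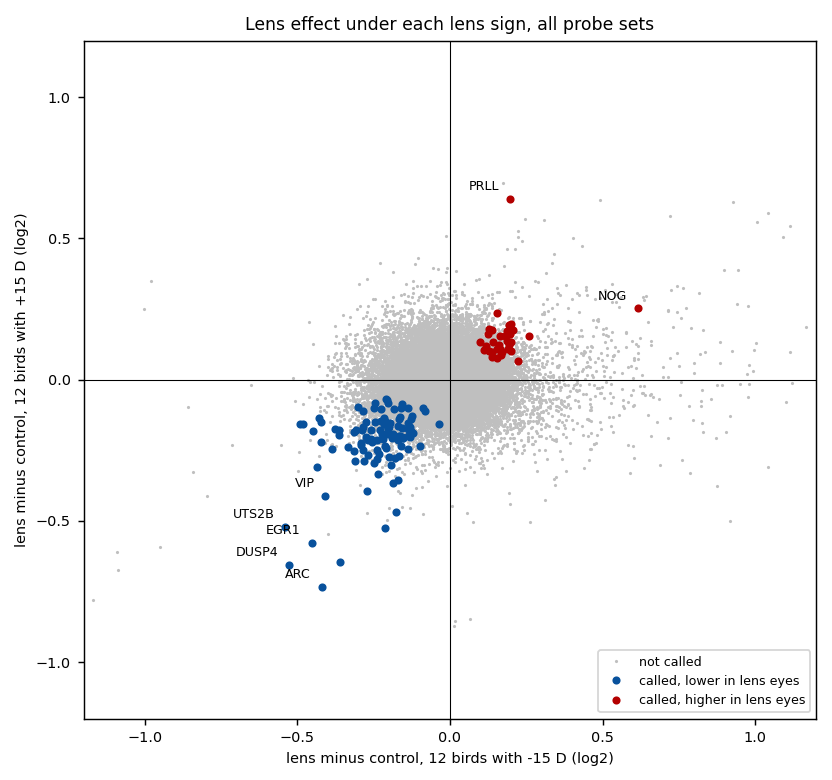
Lens eye minus control eye difference (log2) of each probe set over the 12 birds with -15 D lenses (horizontal axis) and over the 12 with +15 D lenses (vertical axis); 24 probe sets, none of them called, lie outside the axes. Blue points (109 called lower) and red points (34 called higher) fall in the lower left and upper right because they were called on the mean of both; DUSP4, ARC, EGR1, UTS2B and VIP lie far along the diagonal, PRLL high on the vertical axis and NOG far along the horizontal one.

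Genes of other tissues were examined beside these results, and their unadjusted counts are to be read against the shares of all genes, 7.46% lower and 7.84% higher. The list of choroid, sclera and matrix had a median of 0.18, with 4 of 24 genes below 0 (16.7%, against 45.1% of all genes) and 0 called in limma (2 higher unadjusted). Its summed signal on the linear scale ran from 10900 to 63900 with a median of 16100 in lens eyes, against 10200 to 41600 with a median of 12700 in control eyes. Vessel and striated muscle genes had a median of 0.33 and blood and immune genes one of 0.12, with 0 calls in each (1 and 0 higher unadjusted). Genes of the crystalline lens and anterior segment had a median of -0.85 with 0 calls (10 lower and 1 higher unadjusted), and their summed signal reached 10400 in the highest lens eye, against 118000 in the highest control eye. CRYAA, a crystallin of the lens, had a median of 3.69 in lens eyes, against 3.84 in control eyes, both below background, but reached 12.41 in the highest eye. The part of these tissues in the called changes was not tested.

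RPE genes gave 0 calls among 20 in limma (1 higher unadjusted, 5% against 7.84% of all genes) and Muller glia genes 0 among 13 (1 lower and 2 higher unadjusted, 7.69% and 15.4%, against 7.46% and 7.84% of all genes), with medians of 0.021 and -0.0012. Retinoic acid genes gave 0 among 16 (1 lower and 2 higher unadjusted), heat shock genes 0 among 17 (1 higher unadjusted) and glycolysis and hypoxia genes 0 among 23 (2 lower unadjusted). Among 20 measured markers of other retinal neurons, LHX1 was the only call by brightest probe set, where 0.484% of all genes were called. Unadjusted, 1 of the 20 was lower and 3 higher (5% and 15%, against 7.46% and 7.84% of all genes). CALB1, a calcium-binding protein of horizontal cells among others, fell by 0.19 in a dimmer probe set. Among 20 genes of protein phosphatase 2A and ubiquitin ligases, 16 were below 0 (80%, against 45.1% of all genes). Unadjusted, 4 of the 20 were lower and 2 higher (20% and 10%, against 7.46% and 7.84% of all genes). Over all 13009 genes, 93 were called when any probe set counted. In this list RNF149 alone was called, through a dimmer probe set, at 7.65, that fell by 0.14 (limma adjusted p = 0.0468). Its condition mean was -0.52 for -15 D at 3 days, and between -0.12 and 0.10 in the other 3. The actin ratio was higher in every lens eye of that -15 D, 3 day condition. With the actin ratio as a covariate, the RNF149 difference over all conditions was -0.14 (limma adjusted p = 0.0417). The part of RNA integrity in the value of that single condition was not tested.

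The bird-to-bird pattern of DUSP4 was shared by other genes whether or not they were called. Over 24 birds, the differences most like those of DUSP4 were those of PI4K2A (r = 0.841), VWC2 (r = 0.837), RASD1 (r = 0.836), TMEM196 (r = 0.812) and RIOX1 (r = 0.80), where the 95th percentile over 13009 genes was 0.552. These birds share conditions and array pairs, so the values only describe likeness. TMEM196 was called, with a fall of 0.18, and the other 4 differed by between -0.032 and 0.020.

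Named calls differed in how they withstood the loss of birds. Of 44 named probe sets called in limma, 29 passed whichever of the 24 birds was left out. The other 15 lost the call in at least 1 omission, with adjusted p values of up to 0.0943, and belonged to JUN, CREM, ADCY8, SNAP25, CALB1, RNF149, LHX1, CDKN1A, SMOX, PRLL, TMEM215, RAD52, PPDPF, TGFBR2L and ARL2BP. DUSP4 ranged from -0.62 to -0.57 over these omissions, with a limma adjusted p of at most 1.79e-07. Without the 3 birds of widest spread, 21 of 44 lost the call. Among the 29, those were GUCY1A3 (limma adjusted p = 0.054), ADCY1 (0.0867), OPN4 (0.124), MTNR1A (0.054), LURAP1L (0.0867), TXLNA (0.0789), MCRIP1 (0.0576) and POLE3 (0.0789), while VIP, EGR1, ARC, BDNF, UTS2B, PDE3A, PDE10A, FAM150B and NOG passed.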

How the data were processed

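The deposited table holds log2 signals for 38535 probe sets on 48 arrays, which the authors made with RMA and Partek per the submitters' processing notes; the notes name no version. After removal of 153 control and reporter probe sets, 38382 were tested without further normalization. Symbols came from the platform annotation: 27168 probe sets had 1 symbol, 177 several and 11037 none, and the brightest probe set stood for each of 13009 genes in gene lists. limma 3.58.1 in R 4.3.3 fitted 4 condition terms for the lens effect with the bird as a block, and their mean was tested two-sided against 0. Adjustment was by Benjamini-Hochberg over all probe sets. Same-bird eyes deviated together (correlation over 0.1 in 20 of 24 birds, median 0.42), and the pairing comes from bird numbers in the titles.

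Named genes were the 15 with the lowest adjusted p in each direction, the 5 largest changes in each direction, called members of the 23 lists, 12 genes of eye growth work, genes called for an interaction, and the 5 most like DUSP4. Members, lists and tests were chosen with earlier results of these data known. Alternatives changed the block, condition terms, centring, array weights, signal filters, shrinkage, integrity covariates and the birds used. Scan dates are not in the labels, so no batch was fitted. The number of arrays limits the precision.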

Additional observations from a re-analysis of the deposited data

Results flagged for a closer look

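In each condition, the 6 within-bird differences of every named gene were searched for a bird standing apart (a gap to the nearest bird, over the whole range, above Dixon's 95% critical value). Of 216 sets of 6, 20 had such a bird (9.26%), where chance gives about 1 in 20, and no explanation was tested.

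Under -15 D for 6 hours, bird 3 stood apart in OPN4-1 (-0.849), NOG (1.665) and TGFB2 (1.184), and bird 2 in TXLNA (-0.10). Bird 3 also had the widest spread over all probe sets. Under +15 D for 6 hours, bird 6 stood apart in GUCY1A3 (-0.739), SNAP25 (-1.039) and PENK (0.13), and bird 1 in ADCY8 (0.317).

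Under -15 D for 3 days, the birds apart were bird 1 in DCLK1 (-0.726), bird 5 in ADRA2A (0.034) and PER2 (-0.703), bird 6 in TMEM215 (-0.059) and OPN4 (-0.488), and bird 3 in NOS1 (-0.258). Under +15 D for 3 days, they were bird 1 in BDNF (-0.753), PRLL (-0.062) and PENK (-0.247), bird 5 in LURAP1L (-0.282) and OPN4 (0.425), and bird 6 in ARL2BP (0.241). In PRLL, the other 5 birds of that condition lay between 0.984 and 1.326.

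The lens effect on the dim EPHB6 probe set differed between durations by 0.5484 in limma's interaction test, with condition means of -0.50 (-15 D) and -0.22 (+15 D) at 6 hours and of 0.25 (-15 D) and 0.13 (+15 D) at 3 days. The brightest EPHB6 probe set gave 0.080 for the same contrast (limma adjusted p = 0.781).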

How the results depend on the processing

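The count of 143 called probe sets depended on the model and on the birds. With no replicate block, which ignores the pairing of eyes, limma called 15, all lower and all among the 143. It called 715 with array weights, 324 among probe sets above the median level, 229 with trend and robust shrinkage and 241 with the GAPDH integrity ratio as a covariate, an alternative chosen after the values were seen. With the actin ratio as a covariate it called 193, the 143 among them. It called 25 without the -15 D, 6 hour birds, 66 without +15 D at 6 hours, 36 without -15 D at 3 days and 51 without +15 D at 3 days. It called 6 in +15 D birds alone, 3 at 6 hours alone and 5 at 3 days alone. Without the 3 birds of widest spread, also chosen after the values were seen, it called 69, of which 53 were among the 143. Leaving out 1 bird gave 76 to 285 calls. The omissions that moved the count by over 1.5 times were, under -15 D at 6 hours, bird 1 (90), under +15 D at 6 hours, bird 6 (86), under -15 D at 3 days, birds 2 (81), 3 (95) and 6 (87), and under +15 D at 3 days, birds 2 (80), 3 (83), 5 (285) and 6 (76). The F test among conditions gave 8 with array weights, 1 above the median level and 0 to 3 without 1 bird. The sign contrast gave 0 to 1 without 1 bird. The duration contrast gave 7 with array weights, 0 above the median level, 0 without the bird of widest spread and 0 to 2 without 1 bird, and the product gave 3 and 0 to 1. Of 44 named called probe sets, 29 passed in all 24 omissions, and 10 (DUSP4, PDE3A, VIP, ARC, PDE10A, UTS2B, SHC4, FAM150B and both of EGR1) passed without the block. RNF149 turned sign, to 0.040, in birds at 6 hours alone. The cause of these shifts was not tested.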
